A study of Mus musculus with 21 samples.

Results

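The cytosolic ribosomal protein genes are the nuclear genes that encode the proteins of the ribosome outside mitochondria, and they were followed here across 21 mouse libraries. They were taken by name and class, as protein-coding genes whose symbols begin with Rpl or Rps followed by a number, together with Rpsa, Rplp0, Rplp1 and Rplp2 and without the Rps6 kinases and Rps19bp1. This gave 83 of 54532 genes in the hepatocyte table and in the CCl4 table, of which 32 belong to the small subunit and 51 to the large subunit by their names. In the TAA table it gave 81 of 34280 genes, and Rpl10l and Rpl39l were not among them. Another 6 genes carry names of the same form but are classed as non-coding in the tables and were left out, among them Rps4l and Rpl6l.

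The libraries fall into 7 groups of 3, and by its title the study concerns STING, a DNA-sensing adaptor, the NLRP3 inflammasome and pyroptosis of hepatocytes in liver fibrosis. Wild-type primary hepatocytes were given the NLRP3 inhibitor MCC950 (10 µM) for 2 h and then lipopolysaccharide (LPS, 1 µg/mL) for 6 h and nigericin (10 µM), an ionophore that activates NLRP3, for 30 min, and their comparison group was given LPS and nigericin alone. Livers labelled Sting knockout and wild-type livers both came from mice injected intraperitoneally with carbon tetrachloride (CCl4), a hepatotoxin, and wild-type livers after olive oil were their control. The labels give 6 weeks for all 3 groups, where the design text gives 8 weeks for the CCl4 groups. Livers labelled as having Nlrp3 deleted in hepatocytes and wild-type livers both came after 8 weeks of intraperitoneal thioacetamide (TAA), another hepatotoxin. How the deletion was driven, and the age and sex of the animals, are not given in the sources used here. Nothing in the labels tells whether replicates came from separate animals or cultures, and the p-values below therefore rest on library-to-library spread that may be technical.

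A ribosome is built from a small subunit, which decodes the message, and a large subunit, which joins the amino acids, and most of its proteins are present once in each ribosome. Their messenger RNAs are among the most abundant in any cell, and most of them begin with a C followed by an unbroken run of pyrimidines, the 5′ terminal oligopyrimidine (TOP) motif, through which mTORC1 and LARP1 set how well they are translated. In liver, ribosomal protein synthesis follows feeding and growth, and it is raised when hepatocytes regrow after injury. Several members have close relatives that stand in for them in particular tissues or conditions, such as Rpl3l in muscle, Rpl10l and Rpl39l in testis, and Rps27l, a p53 target.

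The starts of the genes show a feature that their choice did not use and that more of the members hold than of other coding genes. RefSeq start sites (GRCm38.p6) were matched by symbol for 63 members, and the following 30-base windows run from 10 bases before the annotated start to 20 after it, with the longest pyrimidine run in capitals. They are picked examples: the first 4 carry long runs at the start and the last 2, from members outside the main set of subunits, do not. Main ribosomal proteins such as Rps3 and Rpl5 also had no run at the start. The Rpl27a window has a T at the annotated start, so it lacks the C of the motif counted below.
Rpl27a (chr7:109519185-109519214, plus strand): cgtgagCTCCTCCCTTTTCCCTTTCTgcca
Rpl35 (chr2:39005112-39005141, minus strand): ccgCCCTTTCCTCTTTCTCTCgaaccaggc
Rpl15 (chr14:18270967-18270996, minus strand): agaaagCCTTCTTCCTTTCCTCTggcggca
Rps6 (chr4:86857348-86857377, minus strand): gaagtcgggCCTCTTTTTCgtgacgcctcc
Rpl7l1 (chr17:46782637-46782666, minus strand): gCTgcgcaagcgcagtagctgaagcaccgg
Rps27l (chr9:66946076-66946105, plus strand): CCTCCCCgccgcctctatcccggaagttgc
The motif searched was a C at the start followed by at least 4 more C or T, read on the gene's own strand, and 13 of the 63 members (20.6%) held it, against 454 of 17429 other coding genes (2.6%). A run of at least 8 C or T anywhere in the window was found in 24 members (38.1%) and in 13% of other coding genes. The median longest run was 7 bases in the members and 5 bases in the other coding genes. Annotated starts can lie a few bases from the start used in a cell, so windows without the motif at the annotated start say only that these letters are not there.

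Rps27 and Rps27l show how close relatives can be and still be counted apart. Their coding sequences (mm10, GENCODE, without the stop codon, given 5′ to 3′ with differing bases in capitals) are both 252 bases long, differ at 60 of them and are 76.2% identical.
Rps27 (chr3:90212728-90213615, minus strand): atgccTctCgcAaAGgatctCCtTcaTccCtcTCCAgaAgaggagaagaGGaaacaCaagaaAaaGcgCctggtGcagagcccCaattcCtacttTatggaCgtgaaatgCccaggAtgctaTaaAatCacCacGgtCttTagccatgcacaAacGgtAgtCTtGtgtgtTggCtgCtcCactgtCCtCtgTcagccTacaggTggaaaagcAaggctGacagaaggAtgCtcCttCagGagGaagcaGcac
Rps27l (chr9:66946175-66949354, plus strand): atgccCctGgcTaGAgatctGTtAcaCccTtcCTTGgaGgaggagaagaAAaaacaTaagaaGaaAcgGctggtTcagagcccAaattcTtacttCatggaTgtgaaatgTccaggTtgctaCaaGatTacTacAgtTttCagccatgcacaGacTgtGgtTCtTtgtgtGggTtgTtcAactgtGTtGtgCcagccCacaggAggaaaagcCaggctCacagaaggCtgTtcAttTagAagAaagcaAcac
Other copies are far closer. Of the 83 members, 43 share at least 50% of the 50-base words of their messenger RNA with another annotated gene. Rps27 shares 98.6% of its words with other genes, foremost its retrocopy Rps27rt. The sources used here do not give how reads that fit several genes were counted, so the split of reads between a member and the genes that share its words is uncertain.

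The members were among the strongest expressed genes in every group. They took 2.87%, 2.93% and 2.97% of all gene reads in the MCC950 hepatocytes, against 2.91%, 3.07% and 2.91% in the hepatocytes without inhibitor. In the livers labelled Sting knockout they took 2.25%, 4.63% and 2.18%, in the wild-type CCl4 livers 1.68%, 2.43% and 2.05%, and in the oil livers 1.30%, 1.62% and 1.19%. In the TAA livers labelled Nlrp3 deletion they took 2.96%, 2.29% and 2.66%, against 2.02%, 1.38% and 2.01% in the wild-type TAA livers. The hepatocyte groups overlap, both CCl4 groups lie above oil, and the second library labelled Sting knockout stands apart from the other 20. The small subunit took between 41.6% and 45.9% of the members' reads in every library.

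**Figure D1:**
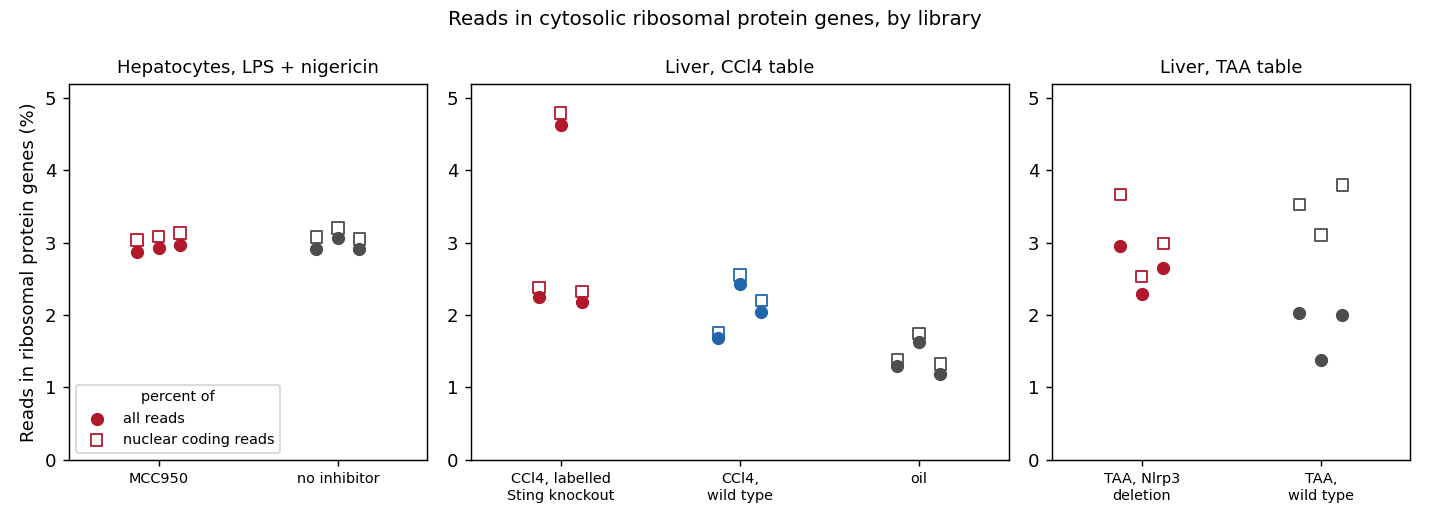
Reads in cytosolic ribosomal protein genes as a percentage of all gene reads (filled circles) and of reads in nuclear protein-coding genes (open squares), 1 pair of points per library, in 3 panels by deposited table. The second library labelled Sting knockout lies at 4.63% of all reads, and in the TAA panel the order of the groups differs between the filled circles and the open squares.

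Total gene reads were 14353483 to 17157586 per library in the hepatocyte and CCl4 tables, recovered from the deposited values, and 32096879 to 68913793 in the TAA table. The 10 hepatocyte markers summed to at least 9584 FPKM (fragments per kilobase of gene, scaled to library depth) in every library, with none of the 10 at 0 throughout a table. Sting1, which the CCl4 table lists as Tmem173, held 136, 59 and 235 reads in the livers labelled Sting knockout, against 255, 226 and 203 reads in the wild-type CCl4 livers, and the third library labelled Sting knockout lies within the wild-type range. The sources used here do not say which part of the gene was removed, and reads outside that part check nothing. Nlrp3 held 23, 105 and 83 reads in the livers labelled Nlrp3 deletion, against 36, 24 and 28 reads in wild-type TAA livers; whole liver holds other cells that express it. In whole liver, fewer cells of a type and less RNA per cell cannot be told apart.

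Levels differed widely within the set. The median of the members' mean levels was 149.5 FPKM in hepatocytes, 124.5 FPKM in the CCl4 table and 104.5 FPKM in the TAA table, and 58, 53 and 43 members had a mean of at least 100 FPKM. The highest was Rplp1, an acidic protein of the ribosomal stalk that recruits elongation factors, with table means of 1497, 1256 and 919 FPKM. The next 4 in hepatocytes were Rplp0, the base of the stalk (756 FPKM), Rpl36 (566 FPKM), Rps3a1 (547 FPKM) and Rps15 (473 FPKM), and in the CCl4 table Rps3a1 (553 FPKM), Rplp0 (428 FPKM), Rpl36 (413 FPKM) and Rps2 (405 FPKM). In the TAA table they were Rps15 (540.4 FPKM), Rpl36 (488 FPKM), Rpl19 (368 FPKM) and Rpl38 (319 FPKM). Rplp2, the partner of Rplp1 in the stalk, had lower values, at 95.0, 86.0 and 69.9 FPKM. Such rankings depend on gene length, since exons span 499 bases in Rplp1, 2072 in Rplp2 and 3170 in Rpsa. In the first wild-type TAA liver these genes held 23649, 7602 and 40169 reads, so Rplp1 and Rplp2 lay closer in reads than in FPKM. Rpsa, the laminin receptor of the small subunit, had means of 412, 269.6 and 224 FPKM.

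The lowest members included tissue-restricted relatives and main ribosomal proteins. The tissue-restricted relatives were at or near 0: Rpl10l was listed at 0 in all 15 libraries of the hepatocyte and CCl4 tables, Rpl39l reached at most 0.418 FPKM and Rpl3l at most 0.66 FPKM in any library. In the hepatocyte and CCl4 tables the low main ribosomal proteins included 3 that share exons with an annotated overlapping transcript on the same strand, and also Rpl21, with means of 7.46 and 12.9 FPKM, whose messenger RNA is not covered by exons of another gene. Exons of other genes cover 71.5% of the messenger RNA of Rpl24 (chromosome 16, 55966275 to 55971435, mm10), a protein of the bridge between subunits, 63.6% of Rps10 (chromosome 17) and 59.3% of Rpl13a (chromosome 7, 45125558 to 45128761). In the hepatocyte and CCl4 tables Rpl24 had means of 5.02 and 1.79 FPKM, Rps10 of 0.967 and 0.629 FPKM and Rpl13a of 10.0 and 6.48 FPKM, while the TAA table gave them 201, 65.0 and 310.2 FPKM. Tables were scaled separately, but the rank of Rpl24 among members also differs, at 79 in the hepatocyte and CCl4 tables and 19 in the TAA table. The overlapping genes were listed at 0 in every library of the hepatocyte and CCl4 tables. The fold changes of these 3 genes in the hepatocyte and CCl4 tables rest on low values.

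MCC950-treated and untreated stimulated hepatocytes had close levels of most ribosomal protein genes. With limma, 0 of the 79 members tested were called higher and 0 lower at an adjusted p under 0.05 (background 0% and 0% of 9835 genes), 8 had an unadjusted p under 0.05, and edgeR on recovered reads also called 0. The median log2 fold change, MCC950 over no inhibitor on the log2(FPKM + 1) scale, was -0.04, against -0.01 for all genes, with 30 of 79 members above 0. Groups did not overlap for 1 member, Rps20, on the higher side (background 8.88%) and for 9 of 79 members on the lower side (background 10.8%). The lower count is close to the share over all genes and the higher count is below it.

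Rpl21, a large-subunit protein, had the largest negative value. It had 4.35, 5.44 and 5.46 FPKM in the MCC950 hepatocytes, against 10.9, 11.3 and 7.28 FPKM without inhibitor, and the groups do not overlap (log2 fold change -0.82 ± 0.16 SE, adjusted p = 0.39). Rpl35a, which is mutated in some Diamond-Blackfan anaemias in humans, had 15.4, 20.3 and 18.1 FPKM with MCC950, against 28.9, 27.4 and 21.9 FPKM without (log2 fold change -0.52 ± 0.13, adjusted p = 0.39). The stalk protein Rplp2 had 71.9, 95.0 and 82.7 FPKM with MCC950, against 99.2, 116 and 106 FPKM without (log2 fold change -0.36 ± 0.11, adjusted p = 0.39), again without overlap. None of these passed the test. Its partners in the stalk had log2 fold changes of 0.01 ± 0.11 for Rplp1 and -0.04 ± 0.07 for Rplp0 (adjusted p of 0.97 and 0.81), and Rpsa was at -0.02 ± 0.11 (adjusted p = 0.96).

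Rps27a, which is made as a fusion with ubiquitin, had 138, 46.4 and 147 FPKM with MCC950, against 132, 199.95 and 110.01 FPKM without. One MCC950 library was low and the other two lay inside the range of the other group, so its log2 fold change of -0.53 ± 0.45 (adjusted p = 0.62) rests on that library. The largest positive values were those of Rpl7a (0.31 ± 0.24, adjusted p = 0.60), Rpl24 (0.28 ± 0.28, adjusted p = 0.66) and Rpl17 (0.26 ± 0.12, adjusted p = 0.44), and in each of them the groups overlap. In the hepatocytes the median SD of a member between replicates on the log2(FPKM + 1) scale was 0.08 with MCC950 and 0.14 without. The liver groups had 0.29 to 0.88, but their tables were scaled separately. Replicates may also differ in kind between cultures and livers, so these spreads do not rank the materials.

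**Figure D2:**
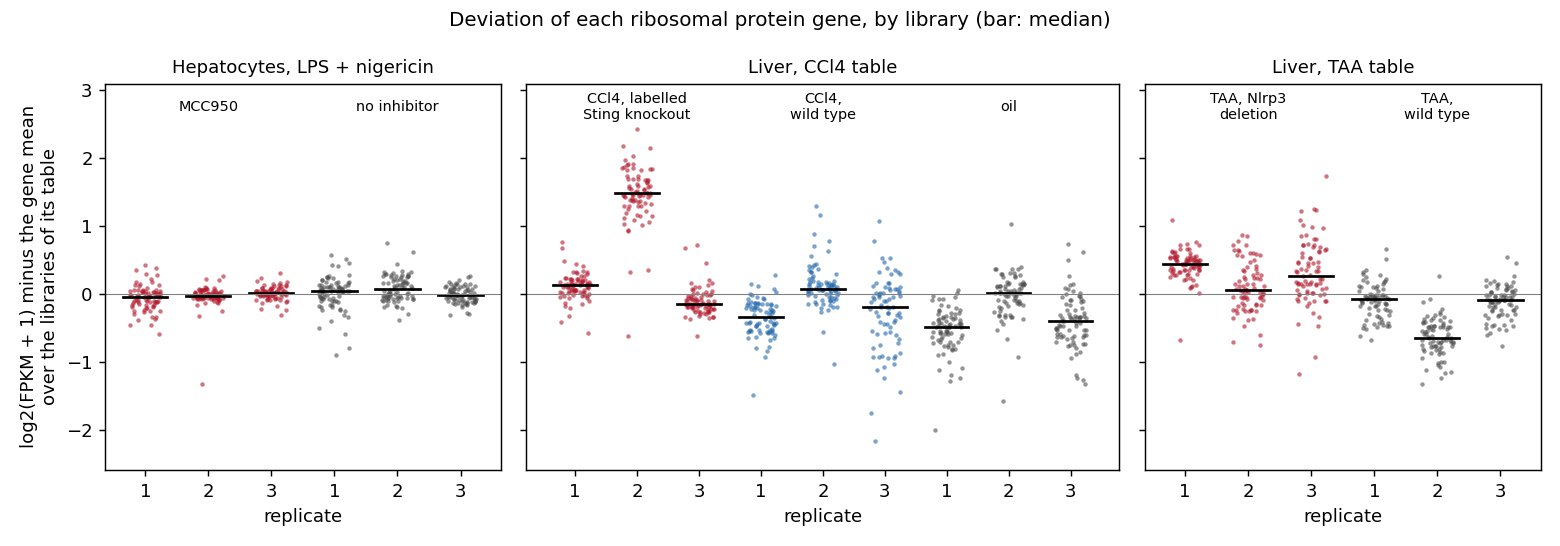
Each point is a ribosomal protein gene in a library, as log2(FPKM + 1) minus that gene's mean over the libraries of its table, with replicates 1 to 3 of each group on the horizontal axis and the median as a black bar. The second library labelled Sting knockout has a median of 1.48, and the other 20 libraries lie between -0.64 and 0.45.

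Wild-type CCl4 livers gave a larger share of reads to ribosomal protein genes than oil livers in all 3 libraries of each, but no single member passed the test. With limma, 0 of 79 members were called higher and 0 lower in wild-type CCl4 livers relative to oil livers (background 9.19% higher and 6.15% lower of 11511 genes), 0 had an unadjusted p under 0.05, and edgeR on recovered reads called 0. The median log2 fold change was 0.12, against -0.08 for all genes, and 57 of 79 members were above 0. The deposited FPKM values times gene length add up to different totals, between 857315 and 916803 for wild-type CCl4 and between 1096240 and 1344058 for oil. With each library set to the same total the members' median was 0.57 and that of all genes 0.29; relative to all genes the members' median was 0.28 on that scale and 0.20 on the deposited scale. With equal totals 13 members had an unadjusted p under 0.05 and still 0 were called.

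Groups did not overlap for only 1 member in each direction (background 16.6% higher and 21.4% lower). Rps13, a small-subunit protein, had 45.5, 47.6 and 44.8 FPKM in the CCl4 livers, against 28.2, 43.9 and 24.1 FPKM in the oil livers (log2 fold change 0.55 ± 0.42, adjusted p = 0.45). Rps2 (chromosome 17, 24718116 to 24721929), which lines the entry of the messenger RNA channel, had 283, 379 and 228 FPKM, against 389, 498 and 387 FPKM in oil livers (log2 fold change -0.54 ± 0.38, adjusted p = 0.40). So the 2 members went in opposite directions, and neither passed the test.

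The largest positive values were those of Rps12, Rps27 and Rps15a, all of the small subunit. Rps12 had 41.0, 91.1 and 169 FPKM in the CCl4 livers, against 33.0, 41.0 and 49.6 FPKM in the oil livers (log2 fold change 1.06 ± 0.60, adjusted p = 0.29). Rps15a had 20.1, 31.1 and 55.4 FPKM, against 14.3, 19.7 and 27.3 FPKM in oil livers (0.70 ± 0.54, adjusted p = 0.45). In both, the first CCl4 liver lay within the oil range and the third was highest. The largest negative values were those of Rpl24 (-0.69 ± 0.43, adjusted p = 0.34), which was under 3 FPKM in these 6 libraries, Rpl23a (-0.56 ± 0.60, adjusted p = 0.61) and Rps2. Rpl23a, a docking site for the signal recognition particle at the tunnel exit, had 109, 180.4 and 26.2 FPKM in the CCl4 livers, against 109, 158 and 98.1 FPKM in the oil livers. A single CCl4 liver sets its direction, since without the third wild-type CCl4 library its log2 fold change was 0.23. In the same library the members' deviations followed GC content (Spearman -0.46 over 79 members, and -0.65 over 10370 other coding genes), a description over genes that share 1 library.

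Rps27 needs its retrocopy beside it. It had 28.8, 186 and 115 FPKM in CCl4 livers of wild type, against 19.8, 27.0 and 139 FPKM in the oil livers, a log2 fold change of 1.00 ± 0.82 (adjusted p = 0.49). Rps27rt had 191, 47.0 and 112 FPKM in the CCl4 livers, against 154, 268 and 42.6 FPKM in the oil livers, so the retrocopy was high in libraries in which Rps27 was low. Their sum was 219.6, 233 and 227 FPKM in the CCl4 livers, against 174, 295 and 182 FPKM in the oil livers. In FPKM the sum spanned about as wide a range as Rps27 alone in the oil livers. As a ratio of highest to lowest replicate, the sum varied far less than either gene in the wild-type CCl4 and oil livers. The smaller ratio of the sum did not hold in every group: in hepatocytes the sum was 392, 342 and 391 FPKM with MCC950, against 624, 298 and 347 FPKM without. In hepatocytes Rps27 had 149, 107 and 129 FPKM with MCC950, against 81.5, 127 and 118 FPKM without, and Rps27rt had 243, 235 and 263 FPKM, against 542, 171 and 229 FPKM without. In the TAA table the retrocopy was low in all 6 libraries, at 14.5 to 77.9 FPKM, with Rps27 at 69.95 to 184 FPKM.

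**Figure D3:**
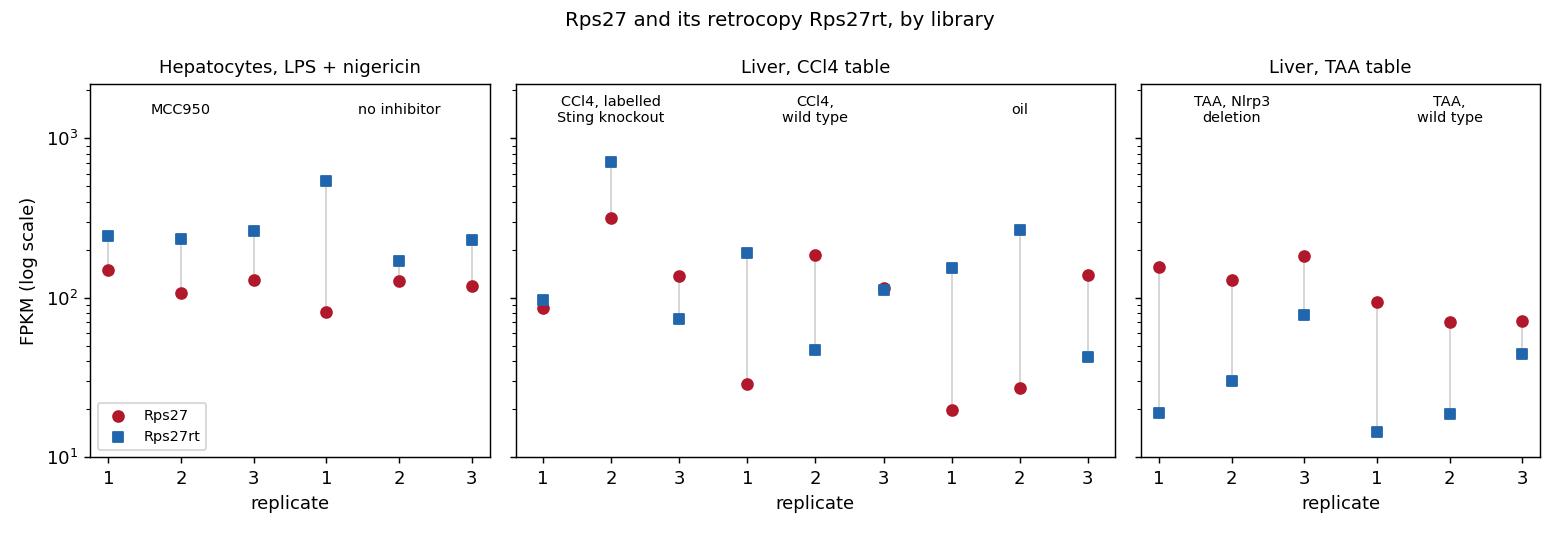
FPKM on a log axis of Rps27 (circles) and its retrocopy Rps27rt (squares), joined by a line within each library, with replicates on the horizontal axis and panels by table. In the CCl4 table the order of the copies changes between libraries of the same group, as in the oil livers, where Rps27 had 19.8, 27.0 and 139 FPKM.

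The livers labelled Sting knockout had higher values for nearly every ribosomal protein gene, and 1 library carried most of this. Relative to the wild-type CCl4 livers, limma called 0 of 79 members higher and 0 lower (background 0% and 0%), and 1 member, Rpl22l1, had an unadjusted p under 0.05. EdgeR on recovered reads and limma with the replicate number as a block also called 0, but 25 and 26 members had an unadjusted p under 0.05 there, and 35 had one with limma without the third library labelled Sting knockout. Groups did not overlap for 0 members (background 2.35% higher and 2.78% lower). The median log2 fold change was 0.66, against 0.02 for all genes, with 78 of 79 members above 0. Without the second library labelled Sting knockout it was 0.16, against 0.01 for all genes, with 68 of 79 above 0. That library also had the highest summed hepatocyte markers, 94300 FPKM, against 56660 and 38040 FPKM in the other 2 of its group. CCl4 livers of wild type had 36770 to 53910 FPKM, and the part of these markers in the result was not tested. Its FPKM values times gene length also added up to more, 1215065, against 962312.5 and 822717.6 in its group. With each library set to the same total the members' median was 0.49, against -0.11 for all genes. Relative to all genes the members' median was 0.60 on that scale and 0.64 on the deposited scale.

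In this library the levels of the major members were far above all others. Rplp1 had 1213, 3465 and 917 FPKM in the livers labelled Sting knockout, against 961, 1225 and 580.2 FPKM in CCl4 livers of wild type (log2 fold change 0.83 ± 0.50, adjusted p = 0.76). Rplp0 had 422, 984 and 373 FPKM, against 345, 413 and 347 FPKM in wild type (0.55 ± 0.38, adjusted p = 0.76). Rpsa had 277, 768 and 226 FPKM, against 169, 244 and 219.8 FPKM in wild type (0.80 ± 0.43, adjusted p = 0.76). In each of the 3 genes the other two livers labelled Sting knockout lay within or just above the wild-type range, and each of the 3 livers lay above the wild-type liver of its own replicate number. The labels do not say that these numbers mark a pairing, and the groups overlap for all 3 genes.

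The largest differences by gene were those of Rpl23a, Rps14 and Rpl17. Rpl23a had 208, 254 and 126 FPKM in the livers labelled Sting knockout, against 109, 180.4 and 26.2 FPKM in wild type (1.22 ± 0.60, adjusted p = 0.76), where the wild-type value of 26.2 FPKM is the low library described above. Rps14, which lies near the platform of the small subunit, had 281, 965 and 237 FPKM, against 176, 264 and 124 FPKM in wild type (1.16 ± 0.53, adjusted p = 0.76). Rpl17 had 74.2, 510.5 and 95.1 FPKM, against 51.8, 63.2 and 117 FPKM in wild type (1.07 ± 0.68, adjusted p = 0.76). At the other end Rps27a was at -0.04 ± 0.73, Rpl7a at 0.02 ± 0.34 and Rpl21 at 0.25 ± 0.56 (adjusted p of 0.99, 0.99 and 0.88). Rpl7a had 29.3, 18.0 and 45.4 FPKM in the livers labelled Sting knockout, so it was lowest in the library in which the set was highest. It was the 1 member of 79 that lay below its own mean over the 9 libraries there, by -0.62 on the log2 scale. Rpl7a, Rpl17 and Rpl23a share 81.2%, 78.7% and 85.7% of their 50-base words with other annotated genes, so their split of reads is uncertain.

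Set against oil, the livers labelled Sting knockout had all 79 members above 0, with a median log2 fold change of 0.77, against -0.04 for all genes. This comparison shares its oil libraries with the CCl4 comparison and its other libraries with the comparison of genotypes, so it is no further evidence for either. Limma called 0 members higher and 0 lower (background 8% and 5.91%), 18 had an unadjusted p under 0.05, and edgeR on recovered reads called 4 higher (background 11.4%) and 0 lower (background 4.93%), namely Rps12, Rpl12, Rps13 and Rps24. With each library set to the same total limma called 26 higher (background 11.3%) and 0 lower (background 2.52%). Without the third library labelled Sting knockout it called 2 higher, Rps13 and Rpl22l1 (background 5.79%), and 0 lower (background 3.37%), and with the replicate number as a block 13 higher (background 9.63%) and 0 lower (background 8.31%). Groups did not overlap for 19 members, all higher (background 17.8%), and for 0 on the lower side (background 19.8%). Without the second library labelled Sting knockout the median was 0.29 and 73 of 79 members were above 0.

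Members of the small subunit led this comparison. Rps27 had a log2 fold change of 1.85 ± 0.82 (adjusted p = 0.17), but with the retrocopy added the sums were 183, 1022 and 212 FPKM, against 174, 295 and 182 FPKM in oil livers. Rps12 had 87.1, 363 and 91.8 FPKM in the livers labelled Sting knockout, against 33.0, 41.0 and 49.6 FPKM in the oil livers (1.79 ± 0.60, adjusted p = 0.075), and the groups do not overlap. Rps21 had 128, 566 and 131 FPKM, against 54.7, 101 and 99.1 FPKM in oil livers (1.36 ± 0.56, adjusted p = 0.14), also without overlap. The smallest values were those of Rpl7l1 (0.03 ± 0.23), Rpl7a (0.10 ± 0.34) and Rps2 (0.13 ± 0.38), with adjusted p of 0.96, 0.88 and 0.85. Rpl7l1, a nucleolar relative of Rpl7, had 23.4, 27.5 and 19.7 FPKM, against 20.5, 24.4 and 24.1 FPKM in oil livers, so it did not share the high level of the second library.

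Markers of other cells moved with these groups. The 5 red-cell markers summed to 1893, 3051 and 2046 FPKM in the livers labelled Sting knockout, against 1092, 457 and 271 FPKM in wild-type CCl4 livers and 349, 968 and 848 FPKM in oil livers, with none of the 5 at 0. In wild-type CCl4 against oil, 8 of 9 macrophage and monocyte markers tested and 8 of 10 stellate-cell markers were called higher (background 9.19%). Their sums were 769 to 1074 FPKM against 173 to 249 FPKM for macrophages and 198 to 438 FPKM against 46.3 to 58.4 FPKM for stellate cells. All 8 cycling-cell markers were called higher (background 9.19%), at 78.4 to 129.8 FPKM against 12.6 to 15.9 FPKM. Their part in the members' values was not tested.

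**Figure D4:**
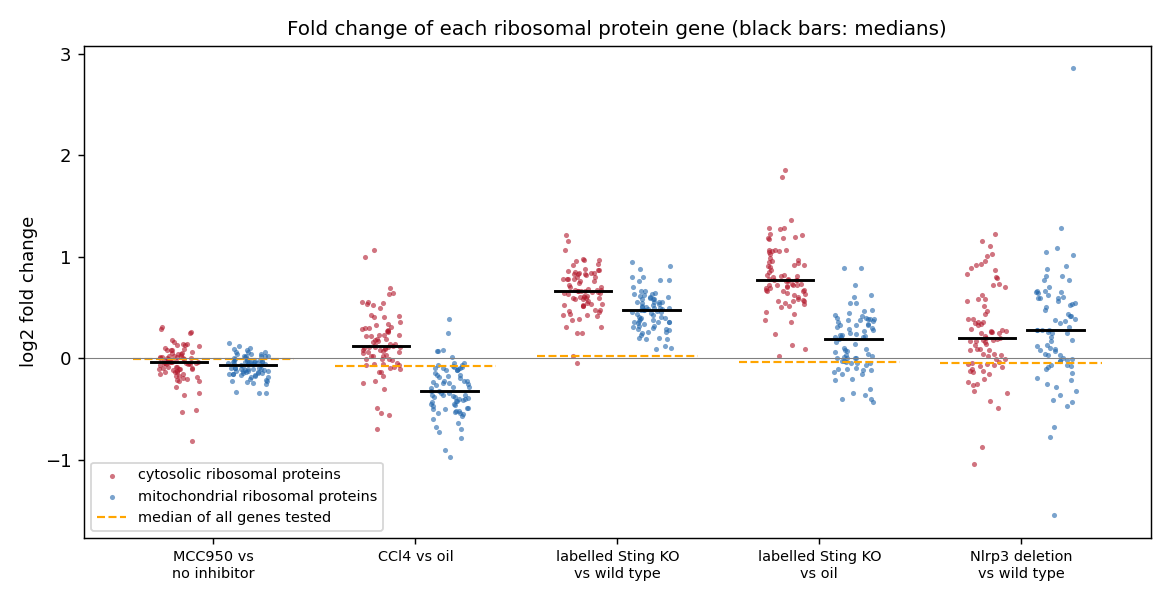
Log2 fold change of each cytosolic (left strip) and mitochondrial (right strip) ribosomal protein gene tested in the 5 comparisons, with black bars at each list's median and a dashed line at the median of all genes tested. Values are limma estimates on log2(FPKM + 1), except the Nlrp3 comparison, where they are edgeR estimates on counts; cytosolic medians run from -0.04 to 0.77.

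The livers labelled Nlrp3 deletion gave more of all their reads to ribosomal protein genes than wild-type TAA livers, but not more of their nuclear coding reads. With edgeR, 0 of 81 members were called higher and 0 lower in the livers labelled Nlrp3 deletion relative to wild-type TAA livers (background 1.37% higher and 0.36% lower of 18619 genes), and 20 had an unadjusted p under 0.05. DESeq2 called 14 higher (background 5.94%) and 0 lower (background 4.99% of 33475 genes, those without an adjusted p included), and limma on FPKM called 20 higher (background 21.7%) and 0 lower (background 1.93%). Without a filter on low counts edgeR called 7 higher (background 3.4%) and 0 lower (background 1.36%). The median log2 fold change was 0.20, against -0.04 for all genes, with 57 of 81 above 0. On FPKM the groups did not overlap for 47 members on the higher side (background 27.8%) and 0 on the lower side (background 6.68%). Mitochondrially encoded transcripts took 12.5%, 5.63% and 6.94% of reads in the deletion livers, against 30.4%, 34.7% and 27.8% in wild type. Of reads in nuclear coding genes the members took 3.67%, 2.53% and 2.99% in the deletion livers, against 3.53%, 3.11% and 3.80% in wild type, so on this scale the groups overlap and the second and the third deletion liver lie below all 3 wild-type livers. The hepatocyte markers summed to 26210, 32900 and 33370 FPKM, against 10790, 10490 and 9584 FPKM in wild type, with none of the 10 at 0. The 10 macrophage markers summed to 82.7, 194 and 292 FPKM, against 78.4, 73.2 and 86.5 FPKM, and the 5 red-cell markers to 211, 172 and 417 FPKM, against 133, 93.1 and 87.2 FPKM in wild type. The part of these markers in the result was not tested.

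The members with the smallest p-values lay just outside the threshold, all higher in the deletion livers. Rps2 had 339.7, 356 and 431 FPKM in the deletion livers, against 167, 134 and 159.85 FPKM in wild type (log2 fold change 0.92 ± 0.20, adjusted p = 0.0512). Rps4x (chromosome X, 102184941 to 102189394), the X-linked copy of a small-subunit protein, had 115, 182 and 199 FPKM, against 71.2, 47.5 and 69.7 FPKM in wild type (1.03 ± 0.23, adjusted p = 0.0524). Rplp0 had 291, 372 and 394 FPKM, against 168, 102 and 176 FPKM in wild type (0.89 ± 0.21, adjusted p = 0.0561). Each of these genes had its 3 deletion livers above its 3 wild-type livers. Rpl41 (chromosome 10, 128548114 to 128549162), the shortest member with a coding length of 75 bases, had 282, 296 and 467 FPKM, against 130.3, 78.9 and 161 FPKM in wild type (1.15 ± 0.28, adjusted p = 0.0573). Rps2 and Rps4x were chosen after their values were seen. With the fit limited to nuclear coding genes these 4 genes were called higher, with adjusted p of 0.0416, 0.0432, 0.0453 and 0.0473 in the order given here (background 4.88%), and 0 lower (background 1.3%). That count, 4 of 81 members, is close to the share over all genes. With all genes and RLE factors in place of TMM factors, edgeR called 0 members, and 1 of 18619 genes higher.

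Values differed widely among members. Rpl7a had 25.2, 75.9 and 139.7 FPKM in the deletion livers, against 32.1, 22.9 and 23.6 FPKM in wild type (1.22 ± 0.51, adjusted p = 0.16), and Rpl9 had 38.7, 59.7 and 86.8 FPKM, against 25.8, 15.4 and 25.9 FPKM in wild type (1.11 ± 0.29, adjusted p = 0.065). In the other direction Rpl21 had 33.4, 12.3 and 8.89 FPKM in the deletion livers, against 31.2, 26.0 and 31.8 FPKM in wild type (-1.04 ± 0.49, adjusted p = 0.20). Rpl38, which in mice is needed for translation of a subset of Hox messages, had 443, 178 and 153 FPKM, against 462, 278 and 402 FPKM in wild type (-0.88 ± 0.43, adjusted p = 0.22). Rpl36 had 739, 304 and 343 FPKM, against 597, 429 and 518 FPKM in wild type (-0.49 ± 0.37, adjusted p = 0.42). For Rpl21, Rpl38 and Rpl36 the first deletion liver lay within or above the wild-type range and the other two lay below it, and for Rpl7a and Rpl9 the first was the lowest deletion liver. Rplp1 and Rpsa were at 0.28 ± 0.26 and -0.12 ± 0.24 (adjusted p of 0.50 and 0.77). Rpl9, Rpl7a and Rpl36 share 93.3%, 81.2% and 81.1% of their 50-base words with other annotated genes, so their split of reads is uncertain. For Rpl38 and Rpl21 the shares are 40.2% and 26.2%.

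Relative to wild type, values of the second and the third deletion liver differed between short and long members, and those of the first differed less. Against the mean of the wild-type TAA livers the median log2 ratio of 80 members was 0.71, 0.36 and 0.57 in the first, the second and the third deletion liver. In the first it was 0.66 for the shortest members (75 to 390 coding bases), 0.68 for the middle ones and 0.74 for the longest (576 to 1257 bases), with all but 1 member above 0. In the second it was 0.21, 0.16 and 0.90, and in the third 0.45, 0.26 and 1.10. Among the longest members 26 of 27 were above 0 in the second liver and 27 of 27 in the third, against 17 and 22 of 26 among the shortest. Over the 3 livers the fold change and coding length had a Spearman correlation of 0.42 across 81 members, which share libraries, and the members whose groups did not overlap were 12 of the 27 shortest, 13 of the middle 27 and 22 of the 27 longest. Other coding genes had the other sign in the second and the third deletion liver. They were taken over all their coding lengths and not only the 75 to 1257 bases of the members, so the correlations cover unlike ranges. Across 9640 of them the deviation from a gene's mean over the table and coding length had a Spearman correlation of -0.20 and -0.21 in the second and the third deletion liver, where the members had 0.48 and 0.39. In the first deletion liver other coding genes had -0.25 and the members -0.47, beside -0.42, -0.32 and -0.38 for the members in the 3 wild-type livers. A gene's deviations cancel out over the libraries of the table, so these signs partly follow from those in the second and the third deletion liver. Against the wild-type mean the first deletion liver differed little with coding length, as given above.

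**Figure D5:**
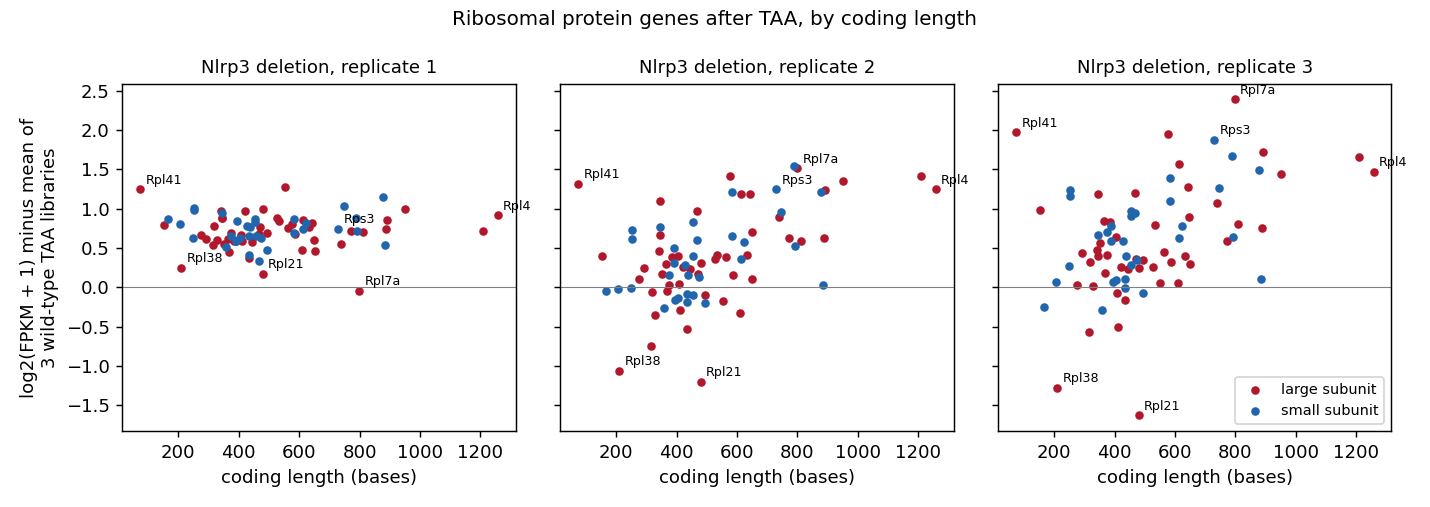
Log2(FPKM + 1) of each member in each deletion liver minus the mean of the 3 wild-type TAA livers, against coding length in bases, with large-subunit members in red and small-subunit members in blue. Replicate 1 is nearly flat with a median of 0.71, while in replicates 2 and 3 long members such as Rpl4 and Rpl7a lie above short ones such as Rpl38; Rpl41 is an exception.

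Leaving out the first deletion liver changed the calls. Without it edgeR called 17 members higher (background 17.9%) and 12 lower (background 20%), and the median log2 fold change was 0.04 in place of 0.20. Both counts are close to the share of all genes called in that fit. Rpl7a (1.64), Rpl9 (1.33), Rpl41 (1.26), Rps3 (1.22) and Rps4x (1.2) had the highest log2 fold changes among those called, and Rpl21 (-1.90), Rpl38 (-1.59), Rpl36 (-1.07), Rpl28 (-0.81) and Rpl26 (-0.76) the lowest, with adjusted p from 0.000578 to 0.0177. Outside the naming rule, Rpl5, which with Rpl11 and the 5S ribosomal RNA can bind Mdm2, was called higher (1.12), as was Rpl3, which reaches the peptidyl transferase centre (1.13). In the CCl4 table the relation with coding length had the other sign, with a Spearman correlation of -0.37 across 79 members for wild-type CCl4 against oil and -0.44 for the livers labelled Sting knockout against oil. In the second library labelled Sting knockout the deviation of 10370 other coding genes had a Spearman correlation of -0.55 with coding length, and that of the members -0.41, so the relation there is not particular to the members.

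Relatives were also compared with their main copy within each library, as ratios of FPKM. Rps27l stood at 1.13 to 1.57 times the FPKM of Rps27 in the MCC950 hepatocytes and at 1.41 to 2.33 times without inhibitor. It stood at 1.22 to 1.35 times in the deletion livers and 1.21 to 1.42 times in the wild-type TAA livers. These ratios depend on gene length and leave out Rps27rt, so they do not rank the messages. Exons of Rps27l and Rps27 span 816 and 1043 bases, but their messenger RNAs hold 499 and 345 bases. In the first wild-type TAA liver they held 5178 and 5465 reads. In the CCl4 table this ratio reached 8.46 in an oil liver in which Rps27 was low and Rps27rt high. Rpl22l1, which can replace the RNA-binding protein Rpl22, stood at 0.636, 0.304 and 0.442 of the level of Rpl22 in the livers labelled Sting knockout, against 0.428, 0.429 and 0.234 in wild-type CCl4 livers, and the groups overlap. In the deletion livers it stood at 0.429, 0.394 and 0.428, against 0.409, 0.466 and 0.376 in wild-type TAA livers. Rpl7l1 stood at 0.0873, 0.122 and 0.119 of Rpl7 in the deletion livers, against 0.0868, 0.108 and 0.0852 in wild type. Rpl3l, specific to striated muscle, never exceeded 0.0103 of Rpl3.

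Mitochondrial ribosomal proteins, which build the separate ribosome of that organelle, differed in their counts from the cytosolic set under CCl4. In wild-type CCl4 livers relative to oil their median log2 fold change was -0.32, with 6 of 77 above 0 and 0 called (background 9.19% higher and 6.15% lower). Groups did not overlap for 22 on the lower side (background 21.4%), and with 57 of 79 cytosolic members above 0 the lists lay on opposite sides of all genes; the difference between the lists was not tested. In the livers labelled Sting knockout relative to wild type all 77 were above 0, with a median of 0.47. In the deletion livers 2 of 78 were called higher with edgeR (background 1.37%), Mrpl53 (2.86 ± 0.55, adjusted p = 0.04995) and Mrps18c (1.29 ± 0.21, adjusted p = 0.0487), and the median was 0.28. Over all genes this fit's 255 higher and 67 lower calls came to 1 and 0 with RLE factors in place of TMM factors.

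Genes that make or control ribosomes were tested in the same fits. Of the RNA polymerase I and ribosome biogenesis factors 0 of 46 were called in wild-type CCl4 livers relative to oil (background 9.19% higher and 6.15% lower), with 1 at an unadjusted p under 0.05. In the hepatocytes 0 of 48 were called (background 0% and 0%), and in the deletion livers 0 of 48 (background 1.37% and 0.36%), with 8 and 23 at an unadjusted p under 0.05. Nop56, a core protein of box C/D snoRNPs, was the 1 called higher in the livers labelled Sting knockout against oil (0.72 ± 0.21, adjusted p = 0.046, background 8%). Among 21 regulators of ribosomal protein synthesis by mTORC1 and MYC, Eif4ebp2, a translation repressor that mTORC1 phosphorylates, was called lower in wild-type CCl4 livers, at 36.2 ± 1.92 FPKM against 65.2 ± 2.68 FPKM in oil livers (SD, n = 3; adjusted p = 0.0416). Relative to oil it was also lower in the livers labelled Sting knockout (-0.99 ± 0.24, adjusted p = 0.0224), where Castor1, an arginine sensor that restrains mTORC1, was higher (1.03 ± 0.28, adjusted p = 0.0341). Over all genes 6.15% were called lower in wild-type CCl4 livers relative to oil. In the livers labelled Sting knockout relative to oil, 8% were called higher and 5.91% lower.

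Of 20 other messages with TOP motifs tested, 2 were called higher (background 9.19%) and 1 lower (background 6.15%) in wild-type CCl4 livers relative to oil, which is close to the share over all genes. Vim, the intermediate filament of mesenchymal cells, had 46.4 ± 5.63 FPKM against 5.67 ± 0.48 FPKM in oil livers (log2 fold change 2.83 ± 0.26, adjusted p = 0.000158), beside the rise of stellate-cell markers given above. Hnrnpa1, a splicing factor, was higher (1.12 ± 0.27, adjusted p = 0.0182), and Eif4b, which assists the unwinding of messages, was lower (-0.86 ± 0.24, adjusted p = 0.0355). In the livers labelled Sting knockout relative to oil Vim was called higher (background 8%), and Eif4b (-1.03 ± 0.24, adjusted p = 0.0185) and Eif4a2 (-1.24 ± 0.35, adjusted p = 0.0388) were called lower (background 5.91%). In the deletion livers 0 of 20 were called (background 1.37% higher and 0.36% lower), with a median of 0.48 and 17 above 0, and 10 had an unadjusted p under 0.05. Of the 13 genes of ribosome quality control and stress tested, Ddit3 was called higher in the livers labelled Sting knockout against oil (1.67 ± 0.44, adjusted p = 0.0306, background 8%).

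Pseudogenes named after ribosomal proteins were counted as well. They summed to 2112, 5105 and 1689 FPKM in the livers labelled Sting knockout, against 1383, 1824 and 1818 FPKM in wild-type CCl4 livers and 1226, 1612 and 1548 FPKM in oil livers, so the second library stands apart here as well. Of 68 tested, Rpl38-ps2 (1.46 ± 0.40, adjusted p = 0.0374) and Rpsa-ps2 (1.15 ± 0.27, adjusted p = 0.0193) were called higher in the livers labelled Sting knockout relative to oil (background 8%). This is a smaller share than over all genes. In the deletion livers Rpl10-ps6 was called higher among 153 tested (1.21 ± 0.23, adjusted p = 0.04995, background 1.37%). Reads from a parent gene and from such copies cannot be told apart where their letters are the same.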

How the data were processed

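RNA sequencing of 21 libraries was analysed from 3 tables, each compared within itself. Per the submitters' processing notes, HISAT2 2.2.1, featureCounts 1.5.0-p3 and mm10 were used; strand and the handling of reads that fit several genes are not given in the sources used here. Per the file headers, the authors deposited FPKM values for the hepatocyte and CCl4 tables and raw counts with FPKM for the TAA table. The FPKM values do not add to the same total in each library. Multiplied by gene length, 100% of the values in the hepatocyte and CCl4 tables came out as whole reads within 0.05.

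FPKM values were tested with limma 3.58.1 (trend, log2(FPKM + 1), mean of at least 1 FPKM, with the 3 groups of the CCl4 table in 1 fit), and fold changes on this scale understate the change of low genes. Counts were tested with edgeR 4.0.16 (quasi-likelihood, TMM factors), all with Benjamini-Hochberg adjustment over all genes tested and a threshold of 0.05, in R 4.3.3; DESeq2 1.42.0 was an alternative. Errors beside log2 fold changes are standard errors. Alternatives were other pseudocounts, filters, scalings and tools, the replicate number as a block, and each library left out. The labels do not say that replicate numbers mark a pairing. Deviations of same-numbered libraries had correlations of 0.225, 0.319 and 0.516 for wild-type CCl4 against oil, where different numbers gave -0.375 to 0.169. For the livers labelled Sting knockout against wild-type CCl4 livers they were 0.189, 0.176 and 0.12, where different numbers gave -0.147 to -0.0217. For MCC950 they were 0.179, 0.218 and 0.085. Whether libraries were paired cannot be told from these values. Scripts were tested on simulated data.

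Named genes were members called by a test, the 3 highest and 3 lowest log2 fold changes of each comparison, the 5 highest levels of each table, the stalk proteins and Rpsa, paralogs, and called companion genes; others were chosen after their values were seen. Members and lists were chosen with earlier results of these data known.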

Additional observations from a re-analysis of the deposited data

How the results depend on the processing

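Alternatives left the sign of every median unchanged, but not every count. The median log2 fold change ranged, over libraries left out in turn, from -0.06 to -0.01 for MCC950, 0.03 to 0.24 for wild-type CCl4 against oil, 0.16 to 0.98 for the livers labelled Sting knockout against wild-type CCl4, 0.29 to 1.08 for them against oil and 0.04 to 0.33 for the Nlrp3 deletion. It was 0.57 for CCl4 with equal library totals and 0.54 for the Nlrp3 deletion with limma on FPKM. Against oil, members called higher in the livers labelled Sting knockout numbered 26 with equal totals, 4 with edgeR on recovered reads, 13 with the replicate block, and 0 to 2 with a library left out. For the Nlrp3 deletion they numbered 14 with DESeq2, 20 with limma on FPKM, 7 with no filter, 4 with nuclear coding genes alone, and 0 to 17 with a library left out, where 0 to 12 were called lower. In the replicate block the median for the Nlrp3 deletion was 0.18 and 0 members were called, and for MCC950 0 were called. The block changed no other member call.

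Signs reversed for single genes with small or unstable values. Over libraries left out in turn, Rpl24 ranged from -0.045 to 0.49 for MCC950, lowest without the first library without inhibitor, and Rpl23a from -1.14 to 0.23 for CCl4, highest without the third wild-type CCl4 library. For the livers labelled Sting knockout against wild type, Rpl21 ranged from -0.44 (without the second labelled library) to 0.67, Rpl7a from -0.30 to 0.35 and Rps27a from -0.70 to 0.52. There Rpl7a was -0.14 with equal totals and Rps27a was 0.023 with edgeR on recovered reads. Against oil, Rps2 ranged from -0.21 to 0.45, Rpl7a from -0.22 to 0.42 and Rpl7l1 from -0.089 to 0.14. The cause was not tested. Beside the members' medians and counts, the values compared were those of single genes and the counts over all genes tested. Of these values 482 stayed the same, 18 passed the threshold under an alternative, 52 moved and 15 reversed. With 3 libraries a group, median replicate SDs of the members were 0.08 to 0.88 on the log2 scale, which limits what could be called for them, most of all in the livers labelled Sting knockout. Sharing of reads with near-identical copies limits Rps27 and others.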
